A study of Drosophila melanogaster with 4 samples.

Results

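The library labelled FH-cortoCD was set directly against the one labelled RpL12-Myc, without a control between them. They are 2 of the 4 libraries in the series and were chosen by their titles. Each was made from polyA+ RNA of 300 wing imaginal discs, pooled from 6 batches of 50, of female larvae in the third instar. By title, FH-cortoCD discs had the genotype sd::Gal4>UAS::FH-cortoCD, in which sd::Gal4 drives the Corto chromodomain carrying FLAG and HA tags and a nuclear localization signal. RpL12-Myc discs had the genotype sd::Gal4>UAS::RpL12-Myc, in which sd::Gal4 drives Myc-tagged ribosomal protein RPL12. The driver alone, sd::Gal4/+, and the line w1118 gave the other 2 libraries. Driver and transgene lines had been isogenized with w1118 beforehand and the transgenes were P element insertions. Each genotype had 1 library, so no difference below has a replicate check and no p-value is given across genes. Separate discs were pooled before sequencing, and a pool cannot show the spread between larvae.

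Corto is a chromodomain protein that works with the Polycomb and trithorax group regulators, which maintain the silent or active state of developmental genes. RPL12 is a protein of the large ribosomal subunit. In the UAS/Gal4 system a Gal4 protein made under the control of one promoter switches on any gene placed behind UAS sites, so both transgenes were expressed where scalloped is active, mainly in the wing pouch. The wing disc is an epithelial sac that later forms the wing and part of the thorax. Fat body, blood cells, gut and salivary glands are other larval tissues, and none of them is part of the disc epithelium.

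Reads were counted per transcript set, called an entry here, and each gene was described by its most abundant entry. Levels are in CPM, the counts-per-million unit, with libraries scaled by the TMM method, and ratios are log2 of the FH-cortoCD level over the RpL12-Myc level. Parentheses after a ratio hold its 95% exact counting interval, taken from the first reads of the pairs alone. These intervals cover counting error only. The totals were 43698298 counts in FH-cortoCD and 44736060 in RpL12-Myc, and 35219666 in sd::Gal4/+ and 26833482 in w1118. A gene was called separated when its log2 ratio was past 1 in either direction and it had at least 100 reads over the 2 libraries. With 0 reads in a library, up to 3 reads are still allowed, or 0.0844 CPM in sd::Gal4/+ and 0.107 in w1118.

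The labels of the 2 libraries disagreed, and so did the reads of the genes they over-express. The title of each of these 2 samples names one transgene and its genotype field names the other, while the titles and genotypes of sd::Gal4/+ and w1118 are in accord. RpL12 (2R:19948199-19948516 for its most abundant entry, dm3) counted 29086 reads under the FH-cortoCD label and 24106 under the RpL12-Myc label, with 17429 in the driver library sd::Gal4/+ and 9993 in w1118. Its log2 ratio was 0.33 (0.30 to 0.37), and all 5 of its entries lay between 0.31 and 0.33. Centred on genes whose most abundant entry was of like length, it was -0.09. That entry of RpL12 has 255 bases and covers only part of the gene, so the length class is not that of the whole transcript. The gene corto (3R:904244-912749) counted 6164 reads under the FH-cortoCD label and 7836 under the RpL12-Myc label, with 7766 in the driver library and 5424 in w1118. Scaled to CPM, this entry had 146, 178, 219 and 194 in the same libraries. Both transgene libraries were thus below both controls at this entry. The log2 ratio of corto was -0.29 (-0.34 to -0.20), and its 4 entries lay between -0.37 and -0.29. Without that centring, each transgene's gene of origin had the lower level in the library titled for it. No entry covers the chromodomain alone, so transgene and endogenous transcripts cannot be told apart. Directions below are those of the titles, written FH-cortoCD and RpL12-Myc for the libraries so labelled; with the genotype fields in place of the titles, every sign would turn round. The study itself names these reads as the titles do.

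Both libraries carried the markers of the disc. Of wing disc patterning, dpp, en, sd, ptc, vg, hh, ci, nub, ap and wg were read, and each had at least 2104 reads in every library. Their log2 ratios ran from -0.18 for wg, which encodes the Wingless ligand, to 0.22 for ci, the transcription factor of Hedgehog signalling. The gene sd, whose promoter drives Gal4, had 239, 225, 284 and 328 CPM in FH-cortoCD, RpL12-Myc, the driver and w1118. The gene w, the eye colour gene that P element vectors commonly carry as a marker, had 445 CPM in FH-cortoCD, 557 in RpL12-Myc, 225 in the driver library and 0.214 in w1118. Its ratio was -0.33 (-0.37 to -0.29). The transgene libraries thus both stood above the driver library, and w1118 had 6 reads in all.

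Most genes were at closely similar levels. Among 7986 genes tested, 40 were higher in FH-cortoCD (0.501%) and 53 were lower (0.664%), which is 1.16% in either direction. The median log2 ratio was -0.02. By the same rule 18 of 7792 genes were higher in w1118 than in sd::Gal4/+ (0.231%) and 95 were lower (1.22%), or 1.45% in all. Which pair held more separated genes depended on the limits, and the control libraries are shallower. With at least 400 reads, 14 genes were higher and 24 lower in FH-cortoCD, and 3 were higher and 35 lower in w1118. These totals are equal as counts but need not be equal as shares. The control pair had fewer genes with at least 100 reads (7792 against 7986) and with at least 2000 reads (3922 against 4634). With at least 2000 reads and a limit of 0.5, the transgene pair had 1.66% separated. The control pair then had 0.969% lower and 0.0% higher in w1118. Among 4634 genes with at least 2000 reads, 98.3% lay within 0.5 of 0. A read test at the strict limit of 4e-18 for its adjusted p, which compares the reads of 2 libraries and not the genotypes, left 20 genes higher (0.25%) and 29 lower (0.363%). The counts hold 1 repeat on each side, because CG10570 and CG42502 share an entry and an unnamed entry overlaps Jon25Bi with the same reads, which leaves 39 and 52 distinct sets of reads. The interval lay beyond 0 for 38 of the 40 and for all 53, and beyond 1 for 14 of the 40 and 34 of the 53. The genes were chosen by ratios that include these same reads. Intervals beyond 0 therefore follow largely from the choice and are no check of it. Just inside the limit stood NdufA3 (1.004) and jtb (-1.004). Just outside it stood CG32694 (0.99) and CG31676 (-0.96).

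**Figure D1:**
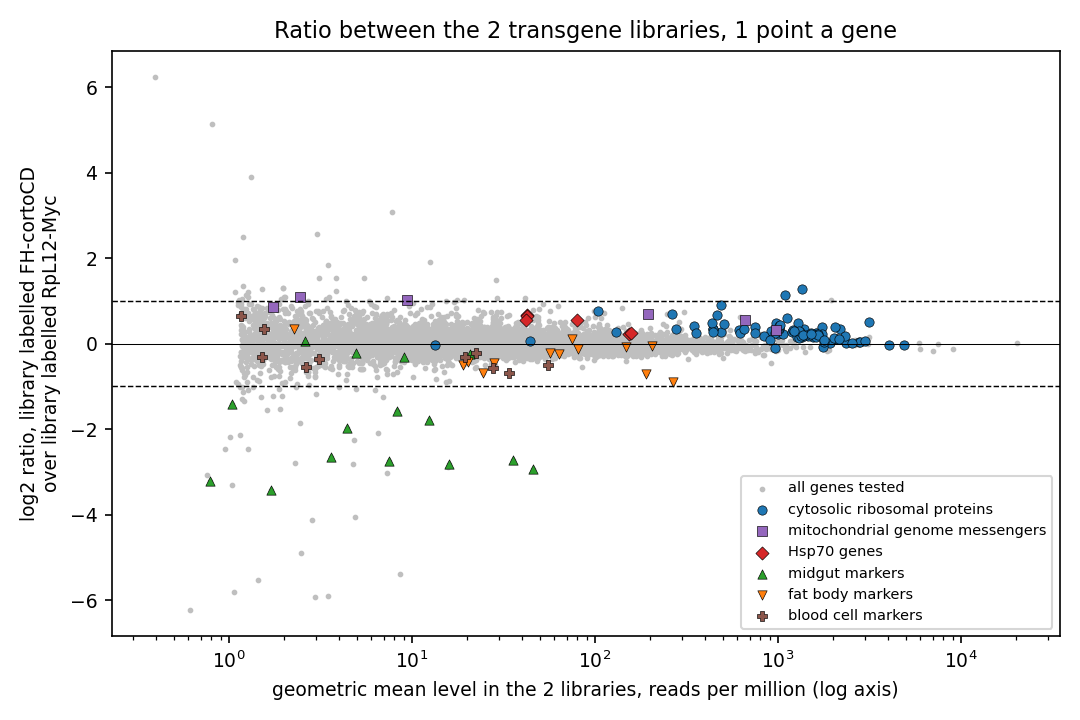
Log2 ratio of FH-cortoCD over RpL12-Myc against the geometric mean level in the 2 libraries (CPM, log axis), 1 point a gene, with 6 gene lists marked; dashed lines are at 1 and -1. Of 15 midgut markers tested, 11 lie below -1, while 78 of 83 cytosolic ribosomal protein genes lie above 0.

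Digestive enzyme genes were among those lower in FH-cortoCD. Jonah proteases and trypsins are serine proteases that the larval midgut secretes to digest food. Jon65Aiv had 704 reads in FH-cortoCD and 5615 in RpL12-Myc, and the driver library had 5 and w1118 had 8, a log2 ratio of -2.94 (-3.11 to -2.79). Jon65Aiii had 585 and 4035 reads in FH-cortoCD and RpL12-Myc, with 2 and 0 in the controls, a ratio of -2.73 (-2.93 to -2.57). The level was highest in RpL12-Myc, clearly lower but present in FH-cortoCD, and at or near 0 in both controls. The trypsin genes followed the same order: deltaTry had read counts of 255, 1855, 0 and 4 in FH-cortoCD, RpL12-Myc, the driver and w1118, and gammaTry had 123, 853, 0 and 0. The trypsins of 2R, with alphaTry, CG30025 and CG30031, are near-identical neighbours, and reads that matched several places had been removed, so the division of reads among them is uncertain. Mur29B, a mucin-related gene, had 22, 245, 0 and 0 reads, and Phae1, another serine protease, had 11, 106, 0 and 0.

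Of 64 midgut markers in the files, whether or not they passed the read minimum, 7 had the higher level in FH-cortoCD and 42 in RpL12-Myc. Over all genes tested, 0.664% were lower in FH-cortoCD and 0.501% higher. Of the 15 midgut markers with enough reads to be tested, 11 were lower in FH-cortoCD and none was higher, with a median of -1.97. Jon25Bii, LManI, Mur29B, Phae1 and alphaTry had under 100 reads in FH-cortoCD and passed the minimum through RpL12-Myc, where they were high, so this count and median describe the tested markers and not the list. The 4 others were LManII, Mal-A5, Npc2a and Mur2B, with ratios from -0.30 to 0.07 and reads in every library. Summed over the 64 genes, the level was 94.3 CPM in FH-cortoCD and 397 in RpL12-Myc, with 49.5 in sd::Gal4/+ and 36.8 in w1118. The number of markers at 0 reads was 25 in FH-cortoCD and 17 in RpL12-Myc, and 39 in each control. In bulk samples, more cells of a type and more RNA per cell cannot be told apart, and the part of other tissue in these differences was not tested.

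The smallest ratios belonged mostly to genes known by CG number alone. CG13324 had 3 reads in FH-cortoCD and 233 in RpL12-Myc (log2 ratio -6.22, -12.12 to -4.29), with 1 in sd::Gal4/+ and 0 in w1118. Its neighbour CG13323, on 2R at 8934238-8934793 and 8936647-8937123 for the pair, had read counts of 16, 1012, 53 and 2 in FH-cortoCD, RpL12-Myc, the driver and w1118 (-5.93, -7.18 to -4.97). CG7465 had 19 and 1184 reads in FH-cortoCD and RpL12-Myc and 0 in both controls (-5.91, -6.73 to -4.87). RpL12-Myc held nearly all reads of these genes. That follows from the choice, because all genes named here were ranked by this ratio. Each had under 100 reads in FH-cortoCD and passed the read minimum through RpL12-Myc. CG10912, the most abundant of them, had 56 and 2431 reads and 0 in both controls (-5.38, -5.80 to -4.74). Drsl2, a relative of the antifungal peptide gene Drosomycin, had 6 and 348 reads and 0 in both controls (-5.80, -8.10 to -4.24). CG33346, CG15818, CG31789, CG32302 and CG15044 had ratios between -5.53 and -3.31 and at most 2 reads in either control.

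At some of the genes lower in FH-cortoCD, both control levels were nearer to RpL12-Myc. They included Ilp6, an insulin-like peptide gene, with 20, 95, 96 and 66 reads in FH-cortoCD, RpL12-Myc, the driver and w1118 (-2.19, -3.63 to -1.38). Others were fat-spondin, with 145, 313, 289 and 222 reads, and sage, a salivary gland transcription factor gene, with 34, 78, 53 and 47 reads. At these 3 genes FH-cortoCD had the lowest level of the 4 libraries, which follows from how they were chosen. Ilp6 and sage had under 100 reads in FH-cortoCD and passed the read minimum mainly through RpL12-Myc.

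**Figure D2:**
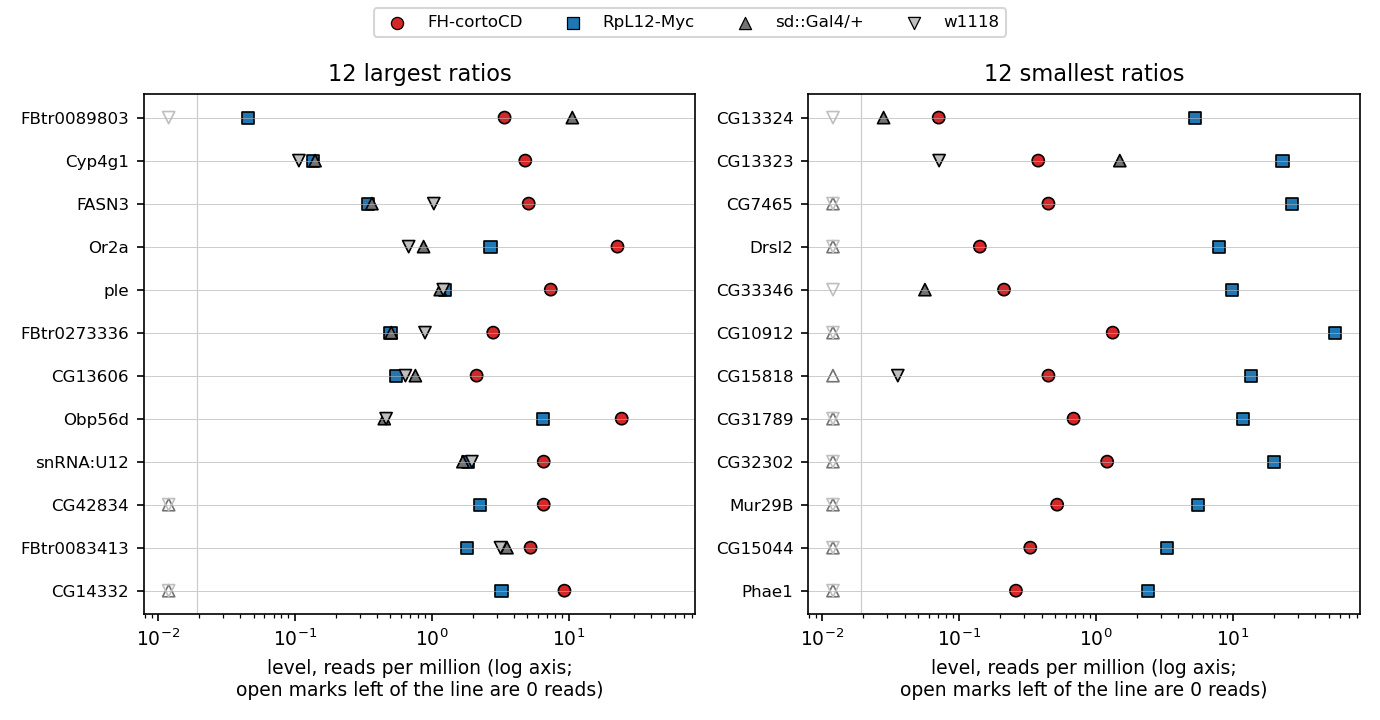
Levels (CPM, log axis) in the 4 libraries of the 12 genes with the largest ratio (left) and the 12 with the smallest (right), 1 mark a library; open marks left of the line are 0 reads, and names that begin with FBtr are transcripts without a gene name. On the right both controls lie below the FH-cortoCD and RpL12-Myc marks in 11 of the 12 rows, the exception being CG13323 in sd::Gal4/+.

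Most fat body and blood cell markers tested were also lower in FH-cortoCD, by less. Fbp1 and Lsp2 encode a storage protein receptor and a storage protein of the larval fat body. Fbp1 had 196 CPM in FH-cortoCD and 366 in RpL12-Myc, with 721 in sd::Gal4/+ and 24.9 in w1118 (-0.90, -0.96 to -0.85). Lsp2 had 147 and 242 CPM in FH-cortoCD and RpL12-Myc, with 275 and 10.3 in sd::Gal4/+ and w1118 (-0.72, -0.78 to -0.65). The control libraries differed from each other far more than the transgene libraries did. Of 13 fat body markers tested, 11 were below 0, with a median of -0.24. None passed the limit of 1, against 1.16% of all genes tested. The sum over 17 markers was 1035 CPM in FH-cortoCD and 1370 in RpL12-Myc, 1830 in the driver library and 441 in w1118.

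PPO1 and PPO2 encode prophenoloxidases of crystal cells, a type of blood cell. PPO1 had 26.8 CPM in FH-cortoCD, 43.3 in RpL12-Myc, 25.3 in the driver library and 33.0 in w1118 (-0.69, -0.85 to -0.54). PPO2 had 46.7, 66.2, 33.9 and 45.3 CPM in the same libraries (-0.50, -0.63 to -0.39). RpL12-Myc had the highest level of both. Pxn, which encodes the matrix enzyme peroxidasin, had 22.7, 33.8, 24.2 and 28.0 CPM (-0.57, -0.75 to -0.42). Of 10 blood cell markers tested, 8 were below 0, with a median of -0.34. None passed the limit, against 1.16% of all genes tested. The ratios of these 10 ran from -0.69 to 0.65, with 4 below -0.5 and 1 above 0.5. Of 11 salivary gland markers, 6 had the higher level in FH-cortoCD and 4 in RpL12-Myc, and the sum was 7.29 and 8.78 CPM in these libraries. Of the 3 with enough reads, Sgs3 and sage were lower in FH-cortoCD and Sgs7 had a ratio of 0.35 (-0.22 to 1.09). Sgs3 and sage had under 100 reads in FH-cortoCD and passed the read minimum mainly through RpL12-Myc, so they do not describe the list. Sgs3, a salivary glue gene, had read counts of 54, 131, 9 and 59 in FH-cortoCD, RpL12-Myc, the driver and w1118 (-1.22, -1.98 to -0.56). Muscle, trachea, neuron and glia markers had medians between -0.11 and 0.05. None of their tested members was separated, against 1.16% of all genes tested.

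Of named genes, Cyp4g1, FASN3 and Or2a had the largest ratios in favour of FH-cortoCD. Cyp4g1 and FASN3 are genes of oenocytes, the larval cells that make very long chain lipids and cuticular hydrocarbons. Cyp4g1 had 204 reads in FH-cortoCD and 6 in RpL12-Myc, with 5 in sd::Gal4/+ and 3 in w1118 (5.14, 3.57 to 7.46). FASN3, a fatty acid synthase gene on the 3LHet scaffold, had 216 and 15 reads in FH-cortoCD and RpL12-Myc, with 13 and 29 in the controls (3.90, 2.77 to 5.05). FH-cortoCD alone had more than 29 reads of either gene. Genes with the largest ratios, here and below, were ranked by this ratio, so few reads in RpL12-Myc follow from the choice. Cyp4g1 and FASN3 had under 100 reads in RpL12-Myc and passed the read minimum through FH-cortoCD. Cyp4g1 lies within the span of CG32816 on the same strand, which had 28 reads in FH-cortoCD and 50 in RpL12-Myc. The gene ple encodes tyrosine hydroxylase, the first enzyme of dopamine synthesis, which also serves cuticle tanning. It had read counts of 313, 55, 41 and 34 in FH-cortoCD, RpL12-Myc, the driver and w1118 (2.56, 1.88 to 3.07). It also passed the read minimum mainly through FH-cortoCD. Of the nearest genes on its 2 sides, CG8519 was close to 0 in both libraries and dikar had 7398 reads in FH-cortoCD and 6995 in RpL12-Myc.

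Or2a, which encodes an odorant receptor, had 961 reads in FH-cortoCD and 118 in RpL12-Myc, with 31 in sd::Gal4/+ and 19 in w1118 (3.08, 2.67 to 3.48). It lies at X:2140264-2141609, 184 bases beyond the end of fs(1)K10 (X:2136137-2140079) on the same strand. The gene fs(1)K10 is known for the terminator that UASp transformation vectors use. It had 3339 reads in FH-cortoCD, 4072 in RpL12-Myc, 2301 in the driver library and 1809 in w1118, a ratio of -0.23 (-0.34 to -0.15), so Or2a and its upstream neighbour differed in opposite directions. On the other side, crn and CG3191 had ratios of -0.21 and -0.18. Both transgene libraries had more reads of Or2a and of fs(1)K10 than either control. Whether reads of Or2a came from the transgenes was not tested.

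Obp56d, an odorant-binding protein gene, had 1032 and 284 reads in FH-cortoCD and RpL12-Myc, with 16 and 13 in sd::Gal4/+ and w1118 (1.92, 1.63 to 2.18). Its level was thus higher in both transgene libraries than in either control. The small nuclear RNA gene snRNA:U12, of the minor spliceosome, had read counts of 278, 81, 60 and 55 in FH-cortoCD, RpL12-Myc, the driver and w1118 (1.84, 1.30 to 2.35). A group of 3 neighbouring genes in 4736 bases of 3R (from 13243189 to 13247924) had no read in either control. CG42834 and CG14332 had 278 and 394 reads in FH-cortoCD and 99 and 142 in RpL12-Myc, with ratios of 1.55 and 1.53. CG33333, the third of the group, had 119 reads in FH-cortoCD and 251 in RpL12-Myc (-1.02, -1.45 to -0.54). Adjacent genes without reads in both controls therefore went opposite ways between the transgene libraries.

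An unnamed transcript on the X chromosome (FBtr0089803, X:11953834-11959180) had 144 reads in FH-cortoCD and 2 in RpL12-Myc, with 378 in sd::Gal4/+ and 0 in w1118 (6.23, 3.64 to 11.49). Its ratio was the largest at the most abundant entry of any gene tested, and it set FH-cortoCD and sd::Gal4/+ apart from RpL12-Myc and w1118. On 2R, a GstS1 entry at 12984309-12984482, chosen after its values were seen, had 100 reads in FH-cortoCD and 1 in RpL12-Myc, with 7 and 5 in sd::Gal4/+ and w1118 (6.70, 3.24 to 11.12). GstS1 encodes a glutathione S-transferase, and its most abundant entry had a ratio of -0.20. An unnamed locus whose nearest entry began 5889 bases away (FBtr0273336) had 119, 22, 18 and 25 reads (2.49, 1.67 to 3.90). FH-cortoCD stood alone at both.

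At some of the genes higher in FH-cortoCD, both control levels were nearer to FH-cortoCD. They included Nplp2, a neuropeptide-like precursor gene, with 100, 43, 70 and 62 reads in FH-cortoCD, RpL12-Myc, the driver and w1118 (1.27, 0.58 to 2.11). Dscam4, a cell adhesion gene, had 446, 220, 368 and 592 reads (1.08, 0.71 to 1.39). At both genes RpL12-Myc was the lowest of the 4 libraries, which follows from how they were chosen. Nplp2 had 43 reads in RpL12-Myc and passed the read minimum mainly through FH-cortoCD.

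Among abundant genes most separations were smaller, and more went upward in FH-cortoCD than downward. Of 4634 genes with at least 2000 reads, 64 were higher in FH-cortoCD by more than 0.5 (1.38%) and 13 were lower by more than 0.5 (0.281%), or 1.66% in all. Centred on genes of like length, a setting chosen after seeing the data, the counts were 34 higher and 13 lower, and without scaling 48 and 17. Between the controls 38 of 3922 such genes were lower in w1118 (0.969%) and 0 were higher (0.0%). Of the 13, CG10912, Jon65Aiv, CG30031, deltaTry and Jon65Aiii had ratios from -5.38 to -2.73. They had 56 to 704 reads in FH-cortoCD and reached 2000 reads mainly through RpL12-Myc. The others of the 13 lay between -0.90 and -0.50. The entries of the 64 were mostly short, with a median length of 504.5 bases. Of the 64, 32 had an entry under 500 bases, although only 100 abundant genes did. RpL41, which encodes the smallest ribosomal protein, had 2100 CPM in FH-cortoCD and 865 in RpL12-Myc, with 713 in sd::Gal4/+ and 586 in w1118 (1.28, 1.24 to 1.29). RpL29 had 1614 and 732 CPM in FH-cortoCD and RpL12-Myc, with 378 and 158 in the controls (1.14, 1.09 to 1.15). Both libraries exceeded the controls, FH-cortoCD by more. RpS21, RpL39, RpL38, RpS27 and RpL35 had ratios between 0.59 and 0.91.

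The gene ox, for a small subunit of respiratory complex III, had 48.0 CPM in FH-cortoCD, 17.1 in RpL12-Myc, 23.5 in the driver library and 13.0 in w1118 (1.49, 1.41 to 1.76). UQCR-6.4, for another subunit of the same complex, had 60.3, 28.7, 23.2 and 14.9 CPM (1.07, 0.92 to 1.19). Other genes with short entries behaved likewise. The gene sun, for the epsilon subunit of ATP synthase, had a ratio of 0.82 (0.75 to 0.90), Tom7, for a subunit of the outer membrane import pore, one of 0.71 (0.62 to 0.78), and Nop10, for a protein of H/ACA ribonucleoproteins, one of 0.92 (0.83 to 1.08). The untranslated RNA lncRNA:CR34335 had 2762 and 1362 CPM in FH-cortoCD and RpL12-Myc, with 472 and 528 in sd::Gal4/+ and w1118 (1.02, 1.01 to 1.05).

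The ratio followed a course by length of the most abundant entry, which for some genes is only part of the transcript. The median log2 ratio was 0.42 for 51 genes of 150 to under 300 bases, 0.32 for 239 genes of 300 to under 500 bases and 0.12 for 1356 genes of 500 to under 1000 bases. It was -0.02 for 3033 genes of 1000 to under 2000 bases and -0.07 for 1642 genes of 2000 to under 3000 bases. For 1184 genes of 3000 to under 5000 bases it was -0.06, and for 451 genes of 5000 bases or more -0.01. The 30 genes under 150 bases, mostly small nucleolar RNA genes, had a median of 0.19. Genes whose most abundant entry was short were thus higher in FH-cortoCD as a class: 89.1% of the 320 under 500 bases were above 0, against 46.2% of all genes. In the controls the course was shallower and of the other sign, with a median for w1118 over sd::Gal4/+ of -0.17 for 150 to under 300 bases, -0.11 for 300 to under 500 bases and 0.04 for 5000 bases or more.

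The ribosomal and respiratory lists lay near or above other genes with entries of like length. Of all genes tested, 0.501% were higher past the limit of 1. Of 83 cytosolic ribosomal protein genes tested, 78 were above 0 and 2 passed that limit, with a median of 0.25. Their median was 0.40 for the 14 of 300 to under 500 bases, against 0.31 for other genes of that length, and 0.22 for the 58 of 500 to under 1000 bases, against 0.11. It was -0.03 for the 6 of 1000 to under 2000 bases, against -0.02. Of 75 nuclear respiratory chain genes 60 were above 0, with a median of 0.18; it was 0.48 for the 19 of 300 to under 500 bases and -0.02 for the 12 of 1000 to under 2000 bases. Of 73 mitochondrial ribosomal protein genes 62 were above 0, also with a median of 0.18. Other growth genes were close to the median of all genes: translation factors had a median of 0.02 over 43 genes, nucleolar and ribosome assembly genes -0.04 over 41, and proteasome subunits -0.03 over 34. RpL12, with a ratio of 0.33, was 1 of the 78.

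**Figure D3:**
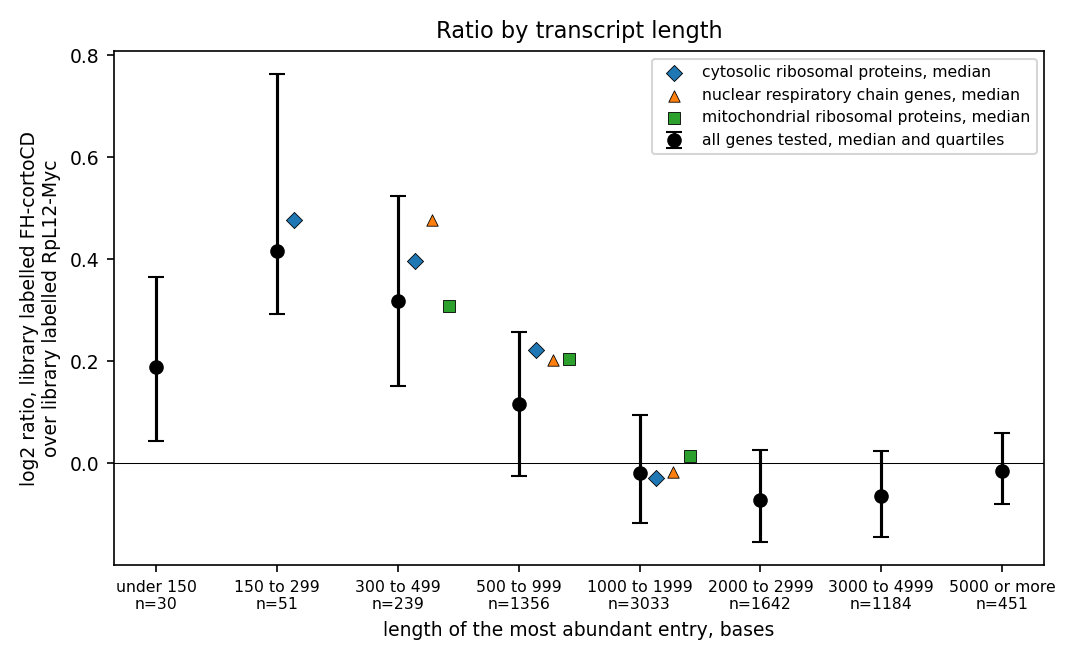
Log2 ratio of FH-cortoCD over RpL12-Myc by length of the most abundant entry (bases); black points and bars are the median and quartiles of all genes tested, and coloured marks are the medians of 3 gene lists in the classes where at least 5 members were tested. The median is 0.42 for 150 to under 300 bases and -0.07 for 2000 to under 3000 bases.

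Transcripts of the mitochondrial genome were higher in FH-cortoCD than in RpL12-Myc and far below the controls in both. All 11 messenger entries tested were above 0, with a median of 0.65 and a range of 0.31 to 1.09. Their summed level was 2673 CPM in FH-cortoCD and 1939 in RpL12-Myc, while the controls had 11250 in sd::Gal4/+ and 10099 in w1118. mt:CoI, for subunit I of cytochrome c oxidase, had read counts of 45828, 38379, 146749 and 93096 in FH-cortoCD, RpL12-Myc, the driver and w1118 (0.31, 0.29 to 0.34). mt:ND2, for a subunit of complex I, had 151, 74, 5273 and 5020 reads (1.09, 0.69 to 1.82). The controls exceeded both transgene libraries at each. The large ribosomal RNA mt:lrRNA had 766 and 498 CPM in FH-cortoCD and RpL12-Myc, against 27463 and 11740 in sd::Gal4/+ and w1118, although libraries were made from polyA+ RNA.

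Genes of the fourth chromosome were higher in FH-cortoCD as a group. This small chromosome is largely heterochromatic in character while its genes are expressed. Of 49 of its genes with at least 2000 reads, 45 were above 0, with a median of 0.20 and quartiles that began at 0.12, while the medians of the 5 large arms ran from -0.05 to -0.03. None of the 49 passed 0.5, against 1.66% of all genes with at least 2000 reads. Of the 66 with at least 100 reads, 7.58% were above 0.5 and 1.52% below -0.5. Over all 7986 genes tested, 297 were above 0.5 and 153 below -0.5. At 2000 reads again and limited to entries of at least 1000 bases, 40 of 44 were above 0, with a median of 0.20. The group thus did not consist of short entries. Entries on the heterochromatic and unplaced scaffolds had a median of 0.12, with 40 of 45 above 0. Many of them are annotated as rRNA, although libraries were made from polyA+ RNA. The count therefore does not describe protein-coding genes of heterochromatin alone.

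The gene zfh2, for a zinc finger and homeodomain protein of the wing hinge, had 511 CPM in FH-cortoCD, 406 in RpL12-Myc, 405 in the driver library and 437 in w1118 (0.33, 0.29 to 0.37). The gene ci had 241, 207, 466 and 469 CPM in the same libraries (0.22, 0.17 to 0.29). In ci both transgene libraries were well below both controls. Over the chromosome the median log2 ratio to sd::Gal4/+ was -0.56 for FH-cortoCD and -0.75 for RpL12-Myc, against 0.08 for w1118. The gene pho, for a DNA-binding Polycomb group protein, had 42.9, 35.7, 116 and 122 CPM (0.27, 0.07 to 0.35). The gene pan, for the TCF factor of Wingless signalling, had a ratio of 0.33 (0.16 to 0.46). The 4 genes below 0 were Asator, ATPsynbeta, gw and ND-49, all above -0.04.

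**Figure D4:**
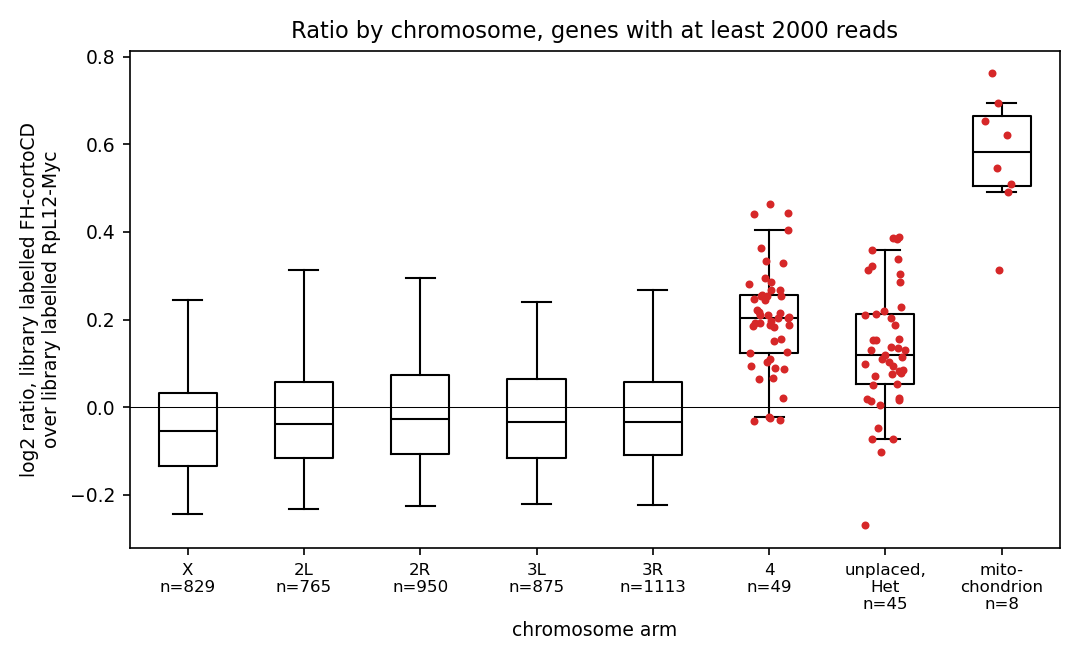
Log2 ratio of FH-cortoCD over RpL12-Myc by chromosome arm for genes with at least 2000 reads; boxes are quartiles, the line the median, whiskers the 5th and 95th percentiles, and red points single genes. Of the 49 genes of chromosome 4, 45 lie above 0, and the arms X, 2L, 2R, 3L and 3R have medians between -0.05 and -0.03.

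Among heat shock genes, those of Hsp70 had higher levels in FH-cortoCD, while the small heat shock genes and most other chaperone genes lay near 0. The 6 Hsp70 genes encode the main inducible chaperone of the fly. They were all above 0, with a median of 0.56, and none passed the limit of 1, against 1.16% of all genes tested. Hsp70Bb had 53.4 CPM in FH-cortoCD and 33.8 in RpL12-Myc, with 13.9 in sd::Gal4/+ and 11.6 in w1118 (0.66, 0.52 to 0.79). Hsp70Aa had 7048 reads in FH-cortoCD and 6244 in RpL12-Myc, with 2041 and 1391 in the controls (0.23, 0.16 to 0.30). The copies are near-identical, so the difference between the Hsp70A and Hsp70B ratios is uncertain. The gene stv, for the BAG family partner of Hsp70, had 65.5, 37.2, 33.4 and 30.6 CPM (0.82, 0.67 to 0.92), and Hsp68 had a ratio of 0.51 (0.42 to 0.63). The constitutive chaperone genes Hsc70-3 and Hsc70-4 had ratios of -0.20 (-0.22 to -0.17) and -0.16 (-0.18 to -0.16). Of 10 other chaperone genes tested, stv and Hsp68 included, 8 were below 0, with a median of -0.05. Of 9 small heat shock genes tested, 7 were above 0, with ratios from -0.24 to 0.33 and summed levels of 4801 CPM in FH-cortoCD and 4720 in RpL12-Myc.

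Genes of the patterning and growth pathways had ratios close to 0. None of the tested members of the wing pouch, hinge, Dpp, Wingless, Notch, EGF receptor, Hedgehog, Hippo, JAK/STAT or ecdysone lists was separated, and their medians lay between -0.08 and 0.09. Over all genes 1.16% were separated, so a count of 0 in lists of 8 to 24 tested genes does not set them apart. Of 17 wing pouch genes 14 were above 0. The gene kn, for the factor of the central intervein, had 570 reads in FH-cortoCD and 430 in RpL12-Myc, with 912 in sd::Gal4/+ and 651 in w1118 (0.46, 0.23 to 0.74). In the Notch list, E(spl)mgamma-HLH, a target gene of the pathway, had read counts of 366, 241, 172 and 130 in FH-cortoCD, RpL12-Myc, the driver and w1118 (0.66, 0.32 to 1.01). In the Wingless list, sens, for a factor of sensory organ precursors, had 326, 222, 280 and 252 reads (0.61, 0.29 to 1.01). At sens the levels in both controls, 7.88 CPM in sd::Gal4/+ and more in w1118, exceeded the 7.71 of FH-cortoCD, whereas E(spl)mgamma-HLH was highest in FH-cortoCD.

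Of 41 Polycomb and trithorax group genes, all tested, 31 were below 0, with a median of -0.05 that became 0.00 when centred on genes of like length. None was separated, a count that the share of 1.16% over all genes does not distinguish from other genes. Su(z)12, for a core subunit of Polycomb repressive complex PRC2, had 54.1 and 68.2 CPM in FH-cortoCD and RpL12-Myc, with 63.8 and 62.0 in sd::Gal4/+ and w1118 (-0.33, -0.43 to -0.21). E(z), for the histone methyltransferase of the same complex, had a ratio of -0.23 (-0.40 to -0.11). Only 2 of 8 homeotic genes had enough reads. Antp had 859 and 935 reads in FH-cortoCD and RpL12-Myc (-0.07, -0.22 to 0.15), and Ubx had 72 and 99 (-0.40, -1.03 to 0.27). Neither could be told from 0 at this depth.

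Cuticle, scent-binding and detoxification genes went both ways. Lcp3, a larval cuticle gene, had read counts of 183, 401, 21 and 73 in FH-cortoCD, RpL12-Myc, the driver and w1118 (-1.08, -1.31 to -0.59). Cpr78E, of another cuticle family, had 597, 321, 206 and 202 reads (0.95, 0.64 to 1.20). Obp56a had 476 and 917 reads in FH-cortoCD and RpL12-Myc, with 914 and 473 in the controls (-0.89, -1.14 to -0.67), the opposite sign to its relative Obp56d. Cyp4e2, a cytochrome P450 gene, had 11.8 CPM in FH-cortoCD, 21.6 in RpL12-Myc and 9.09 in sd::Gal4/+, close to that of w1118 (-0.87, -1.12 to -0.67). Of 37 glutathione S-transferase and P450 genes tested, 1 was higher and 1 lower past the limit, against 0.501% and 0.664% of all genes tested. The median of the 37 was 0.01.

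A single entry within a gene sometimes separated the libraries where the gene did not. The gene chic encodes profilin, which binds actin monomers. A chic entry of 159 bases (2L:5979940-5980098), chosen after its values were seen, had 1193 reads in FH-cortoCD and 2806 in RpL12-Myc, with 1388 in sd::Gal4/+ and 1147 in w1118 (-1.18, -1.26 to -0.98). The ratio at the most abundant entry was -0.46. RpL12-Myc was thus the library apart at the short entry. Likewise a 150-base entry of Act5C, for cytoplasmic actin, had 1371, 709, 7183 and 4389 reads (1.01, 0.76 to 1.13), while the gene's ratio was -0.14. In all, 22 entries of genes or loci not called separated passed the rule.

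**Figure D5:**
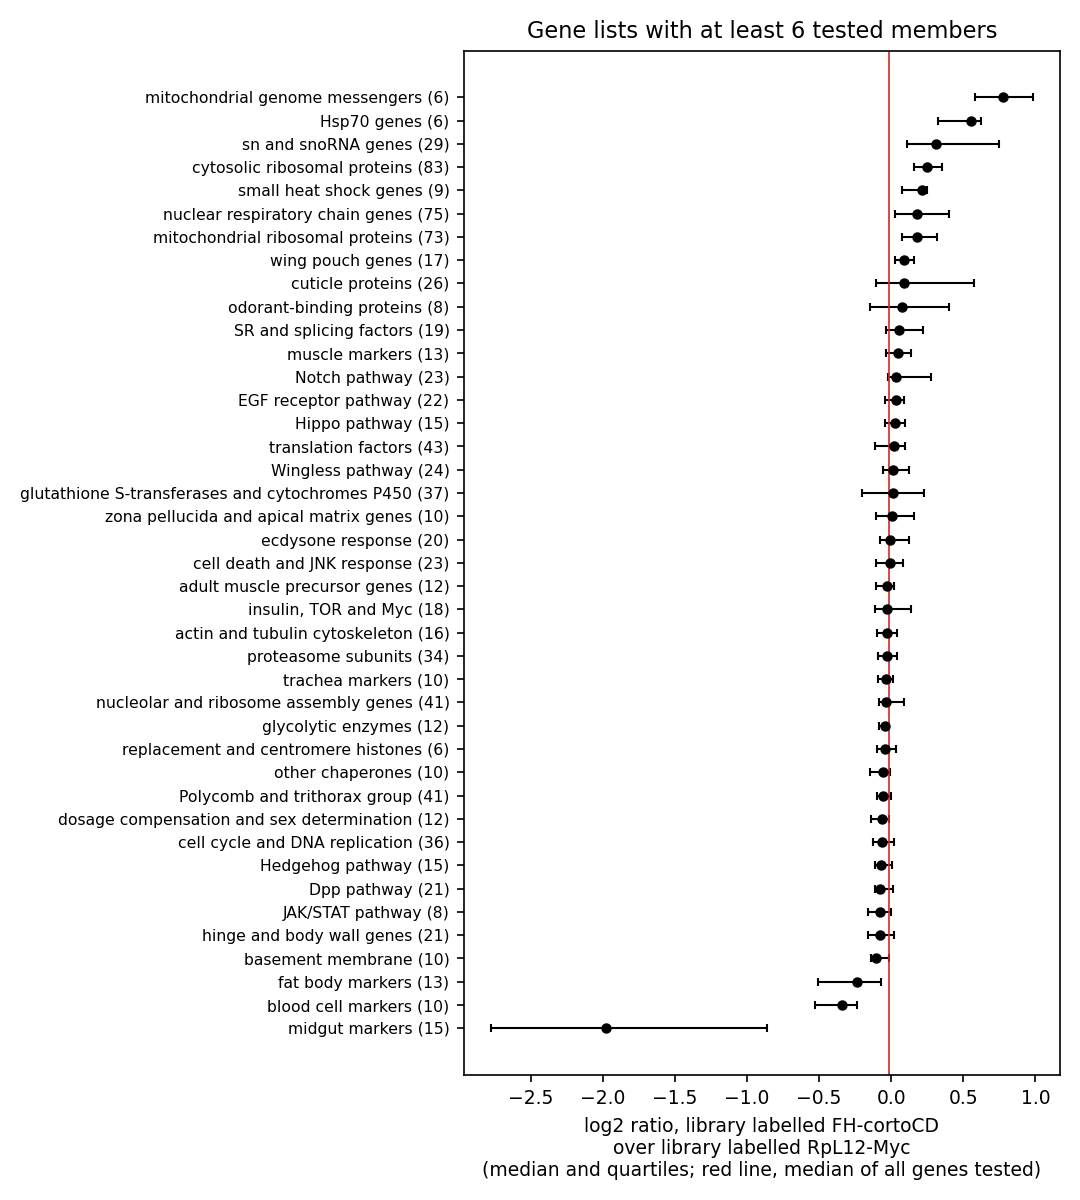
Median and quartiles of the log2 ratio of FH-cortoCD over RpL12-Myc for gene lists with at least 6 tested members (number in parentheses); the red line is the median of all genes tested, -0.02. Mitochondrial genome messengers and Hsp70 genes lie highest, and midgut, blood cell and fat body markers lie lowest.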

How the data were processed

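RNA-seq was analysed in 4 libraries, 1 per genotype. The authors purified polyA+ RNA, sequenced both ends of fragments, aligned them with Bowtie to dm3, removed reads that matched several places and deposited, per read of the pair, raw counts for each transcript set of FlyBase and the fraction of alignments these make up (the submitters' notes name CASAVA 1.7, Bowtie, SAMtools and edgeR 1.6.10). The deposited fraction column served only to check totals. Whether counting used strand is not given in the sources used here. Here the counts of both reads were summed. Of 30950 entries 29048 were given gene names from the BDGP6 annotation by transcript ID, used for names only; these held 97.4% of counts.

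Libraries were scaled by TMM over all 4 (edgeR 4.0.16). A gene was its most abundant entry; genes needed 100 reads over the 2 libraries and a log2 ratio past 1, or 2000 reads and 0.5. Counting intervals were exact at 95% from first reads (SciPy 1.17.1), since the 2 reads of a pair are not independent. The script for the read test was tested on simulated data. Alternatives used DESeq2 1.42.0 size factors, total counts, no scaling, other read minimums and limits, each read alone, and summed entries. Named were RpL12, corto, sd, w and fs(1)K10, the 12 genes at each end, the 10 abundant genes at each end, and up to 4 members of each of 51 lists with the largest ratios; other names are examples chosen after their values were seen. The genes and lists were chosen with earlier results of these data known.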

Additional observations from a re-analysis of the deposited data

How the results depend on the processing

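No paired analysis was possible because each genotype had 1 library, and for the same reason no library could be left out. The 40 genes higher and 53 lower in FH-cortoCD were between 31 and 55 and between 53 and 60 under DESeq2 size factors, total counts, no scaling, TMM from the 2 libraries alone, either read alone, summed entries and any entry of a gene. With DESeq2 size factors the same genes were called, 40 of 40 and 53 of 53. A minimum of 1 read gave 1154 and 1233 genes, a minimum of 400 reads gave 14 and 24, a limit of 0.5 gave 297 and 153, a limit of 2 gave 6 and 28, and a read test at an adjusted p below 4e-18 gave 20 and 29; these differ by construction. The control pair with at least 400 reads gave 3 higher and 35 lower in w1118. Centring each ratio on the median of its length class, chosen after seeing the data, gave 26 genes higher, and 34 abundant genes higher in place of 64. The same centring moved the medians of cytosolic ribosomal proteins to 0.088, nuclear respiratory chain genes to 0.0585, mitochondrial ribosomal proteins to 0.0671, midgut markers to -2.09 and fat body markers to -0.35. The midgut median was -2.32 in first reads, -2.27 in second reads and -1.79 in summed entries, and the blood cell median was -0.50 with at least 400 reads. The chromosome 4 median ran from 0.15 without scaling to 0.25 with centring. Of 384 values recomputed for 48 named genes, 28 left their counting interval and 1 changed sign. That was RpL12, which was -0.09 with the centring and between 0.27 and 0.33 otherwise. Its length class was that of a 255-base entry, a part of the gene. The Polycomb and trithorax group median, -0.05, became 0.00 with the centring. At 100 reads the counting intervals are wide, and no interval covers the spread between pools of discs.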
